A study of Mus musculus with 6 samples.

Results

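Skeletal muscle transcripts were followed through 6 mouse tumours with 10 genes, 8 of the fast-twitch sarcomere (Myh1, Myh4, Mylpf, Acta1, Tnnt3, Tnnc2, Tnni2 and Actn3) and 2 of muscle metabolism (Ckm and Mb). The genes were taken by symbol from the 57462 genes listed for every library. Each of the 10 symbols matched 1 row, and all 10 passed the filter on low values that left 14207 genes for testing. The tumours were grown from HM1, a murine ovarian cancer cell line, in a model described as early. A control hairpin RNA was used for 3 tumours (shControl, labelled wild type), and a hairpin against the sialyltransferase ST3GAL3 for the other 3 (shST3GAL3, labelled as a knockdown). The sources used here do not give the host mice, their age, the site of growth, or the clones or hairpins behind each group. Values are TPM, a level corrected for gene length and relative to the library's own total. Depth is unknown, so precision rests on the replicates.

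As a check of the labels, St3gal3 was 14.03, 13.84 and 13.79 TPM in the shControl libraries and 8.44, 6.77 and 7.49 TPM in the shST3GAL3 libraries, so the groups did not overlap. The means were 13.9 ± 0.127 TPM in shControl and 7.57 ± 0.838 TPM in shST3GAL3 tumours (SD, n = 3 each), a log2 fold change of -0.80 (SE 0.11) that did not pass over all genes (limma adjusted p = 0.348). The keratin genes Krt8 and Krt18, of simple epithelia, lay between 641.34 and 1303.81 TPM in every library. Both were lowest in shST3GAL3 1, Krt8 at 728.22 TPM against 1024.95 to 1295.20 elsewhere and Krt18 at 641.34 TPM against 941.10 to 1303.81. Of the other markers of ovarian cancer cells, Muc16 was listed at 0 in all 6 libraries and Epcam reached at most 1.17 TPM. Pax8 stood at 1.65 TPM in shST3GAL3 2 and at no more than 0.02 TPM elsewhere. Wt1 lay between 0.49 and 3.01 TPM and Krt7 between 0.38 and 0.85 TPM. The 6 libraries are not stated to come from different mice. The tests therefore describe variation among these libraries, some of which may be technical.

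Skeletal muscle contracts by the sliding of myosin thick filaments along actin thin filaments. In fast fibres the heavy chains Myh4 (type IIB) and Myh1 (type IIX) carry the motor, Mylpf is the regulatory light chain bound to it, and Acta1 is the actin of the thin filament. The troponin subunits Tnnc2 (calcium binding), Tnni2 (inhibitory) and Tnnt3 (tropomyosin binding) switch the thin filament on, Actn3 anchors it at the Z disc, Ckm regenerates ATP from phosphocreatine, and Mb (myoglobin) stores oxygen. These genes are characteristic of mature muscle fibres. In bulk RNA, fewer cells of a type and less RNA per cell cannot be told apart.

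The promoters of 3 of these genes are shown because the heavy chain pair and Acta1 are the members whose proportions the values below turn on. They come from RefSeq on GRCm38.p6, an older build than the GRCm39 named in the submitters' processing notes, and run from 250 bases before to 50 bases after the annotated start, 5′ to 3′ on the gene's strand. Capitals mark matches to the MEF2 motif, the CArG box and TATAAA on either strand. Myh1 lies at chr11:67199852-67200151 on the plus strand, Myh4 at chr11:67237562-67237861 on the plus strand and Acta1 at chr8:123894726-123895025 on the minus strand.
Myh1: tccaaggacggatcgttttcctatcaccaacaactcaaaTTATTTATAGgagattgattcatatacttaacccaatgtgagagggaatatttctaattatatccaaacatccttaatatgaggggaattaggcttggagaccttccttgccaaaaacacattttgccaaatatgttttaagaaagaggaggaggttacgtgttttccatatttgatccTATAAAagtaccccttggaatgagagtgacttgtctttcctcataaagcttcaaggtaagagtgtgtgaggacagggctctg
Myh4: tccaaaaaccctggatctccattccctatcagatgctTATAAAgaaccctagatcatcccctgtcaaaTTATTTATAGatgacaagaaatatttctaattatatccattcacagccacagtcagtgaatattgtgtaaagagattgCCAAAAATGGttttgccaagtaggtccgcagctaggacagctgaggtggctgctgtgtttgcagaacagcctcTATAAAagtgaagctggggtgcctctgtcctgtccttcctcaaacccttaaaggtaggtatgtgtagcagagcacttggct
Acta1: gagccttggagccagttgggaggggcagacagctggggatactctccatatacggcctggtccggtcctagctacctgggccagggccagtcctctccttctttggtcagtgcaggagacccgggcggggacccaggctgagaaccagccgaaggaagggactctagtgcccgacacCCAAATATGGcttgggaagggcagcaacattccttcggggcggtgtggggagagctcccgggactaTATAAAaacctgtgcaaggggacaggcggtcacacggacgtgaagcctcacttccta

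The Myh1 and Myh4 windows shared a run of 20 identical bases, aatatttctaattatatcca, and one of 15 bases, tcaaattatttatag, that holds the MEF2 match TTATTTATAG of each gene. The MEF2 match lay at -211 to -202 in Myh1 and at -182 to -173 in Myh4, counted from the start. On the other strand TATAAA overlaps this match in both genes. A CArG box lay at -104 to -95 in Myh4 (CCAAAAATGG) and at -73 to -64 in Acta1 (CCAAATATGG). RefSeq windows were found for 7 of the 10 genes, with Tnnt3, Tnni2 and Actn3 unmatched. Of those 7 genes, the MEF2 motif was found in 2, the CArG box in 2, TATAAA in 3 and the E-box CANNTG in 6, over 9 windows since Mb has 3. Over all 32851 windows of this length the shares were 3.19% for MEF2, 1.63% for the CArG box, 13.6% for TATAAA and 72.3% for CANNTG. A match is a description of letters, not of binding.

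Muscle transcripts were found at graded levels that ran across both groups. The summed level of the 10 genes was 136, 5.51 and 29.1 TPM in shControl 1, 2 and 3, and 7.30, 453 and 88 TPM in shST3GAL3 1, 2 and 3. The highest tumour, shST3GAL3 2, thus exceeded the lowest, shControl 2, by 82.3-fold, while the range was 24.7-fold within shControl and 62.1-fold within shST3GAL3. The genes were not restricted to single tumours. All 10 stood at 1 TPM or more in shST3GAL3 2 and shControl 1, 9 did so in shST3GAL3 3, 7 in shControl 3, 3 in shST3GAL3 1 and 2 in shControl 2. Even in shST3GAL3 2 the 10 genes made up 0.0453% of all TPM.

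The order of the tumours was shared by nearly all members. Each of the 10 was highest in shST3GAL3 2, against 10.7% of the 14207 genes tested. In all 10, shControl 2 and shST3GAL3 1 were the lowest pair, against 8.08% of the genes tested. In 9 of 10 the full order was shST3GAL3 2, shControl 1, shST3GAL3 3, shControl 3 and then those 2 tumours, against 0.373% of genes tested. Mb was the exception, with shControl 3 above shST3GAL3 3. This order was read from the values, so these counts describe the members and test nothing. Over the 6 libraries Pearson's r of log2(TPM + 1) between members had a median of 0.968 over 45 pairs, from 0.831 (Ckm and Mb) to 0.9998 (Tnnt3 and Tnnc2). All pairs share the same 6 libraries.

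**Figure D1:**
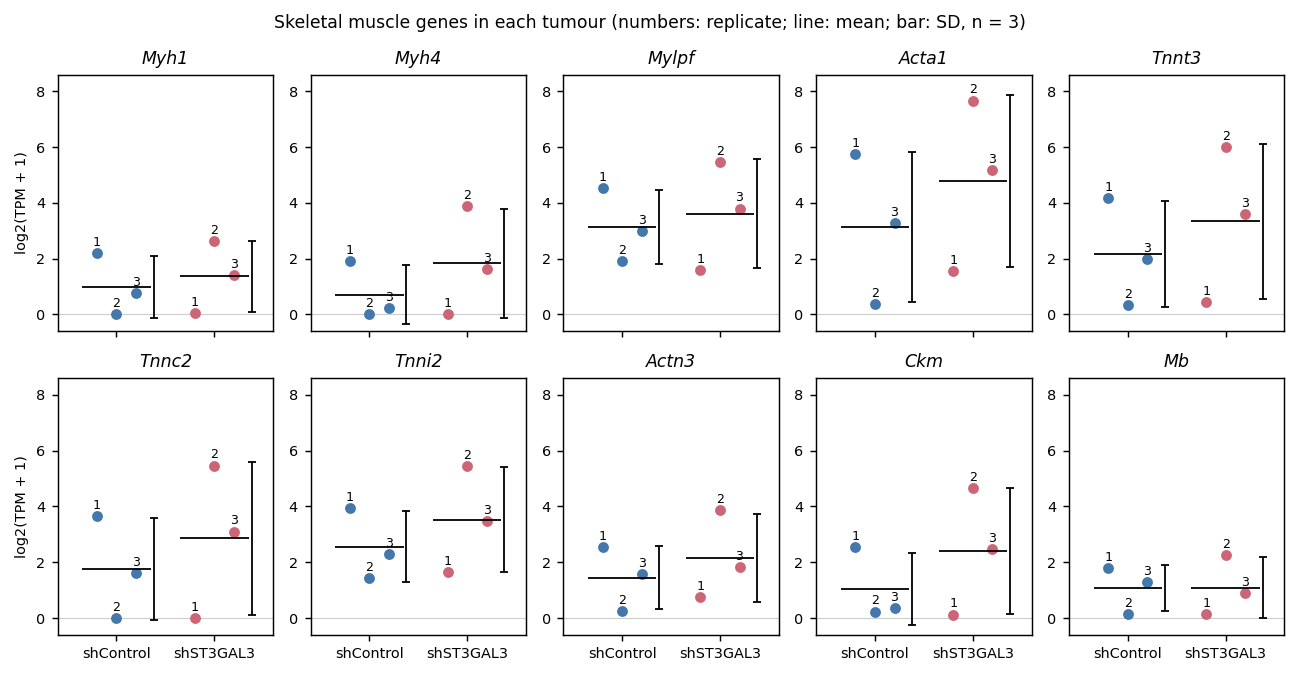
Level of each of the 10 muscle genes on the log2(TPM + 1) scale (y axis) in the 3 shControl (blue) and 3 shST3GAL3 (red) tumours, with the replicate number at each point, the group mean as a line and the SD (n = 3) as a bar. The point of shST3GAL3 2 is the highest in every panel, and the groups overlap in all 10.

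In the thick filament, Myh4 measured 2.75, 0 and 0.17 TPM in the shControl 1, 2 and 3 libraries and 0, 13.72 and 2.09 TPM in the shST3GAL3 1, 2 and 3 libraries. It was listed at 0 in 1 tumour of each group. Myh1 measured 3.61, 0.01 and 0.71 TPM in the shControl libraries and 0.04, 5.14 and 1.67 TPM in the shST3GAL3 libraries. In shControl 1 and 3 Myh1 was the more abundant heavy chain, and in shST3GAL3 2 and 3 Myh4 was. Mylpf measured 21.90, 2.74 and 6.87 TPM in the shControl libraries and 1.98, 43.31 and 12.84 TPM in the shST3GAL3 libraries. It kept a level near 2 TPM in the 2 tumours where the heavy chains were all but absent.

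In the thin filament, Acta1 was the most abundant member in 4 tumours, with 53.03, 0.30 and 8.74 TPM in the shControl 1, 2 and 3 libraries and 1.91, 201.52 and 34.84 TPM in the shST3GAL3 1, 2 and 3 libraries. Its highest value in shControl was 177 times its lowest there, and 106 times in shST3GAL3. Tnnt3 measured 16.94, 0.27 and 2.96 TPM in the shControl libraries and 0.35, 62.64 and 11.02 TPM in the shST3GAL3 libraries. Tnnc2 followed it at a lower level, with 11.59, 0 and 2.06 TPM in the shControl libraries and 0, 43.25 and 7.56 TPM in the shST3GAL3 libraries. Tnni2 measured 14.35, 1.72 and 3.92 TPM in the shControl libraries and 2.16, 42.39 and 10.11 TPM in the shST3GAL3 libraries. Like Mylpf, Tnni2 stayed near 2 TPM in shControl 2 and shST3GAL3 1, where Tnnc2 was listed at 0 and Tnnt3 stood below 0.5 TPM.

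At the Z disc, Actn3 measured 4.78, 0.19 and 1.98 TPM in the shControl 1, 2 and 3 libraries and 0.67, 13.49 and 2.54 TPM in the shST3GAL3 1, 2 and 3 libraries. Ckm, the muscle creatine kinase, measured 4.85, 0.17 and 0.27 TPM in the shControl libraries and 0.09, 24.01 and 4.53 TPM in the shST3GAL3 libraries. For Ckm, as for Myh4, shControl 3 stayed under 0.5 TPM, close to the 2 lowest tumours. The level in shST3GAL3 2 was 88.9 times that in shControl 3 for Ckm and 80.7 times for Myh4. Mb had the smallest SD within groups on the log2(TPM + 1) scale, 0.97, with 2.45, 0.11 and 1.43 TPM in the shControl libraries and 0.10, 3.81 and 0.84 TPM in the shST3GAL3 libraries.

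The proportions between members were near constant for 2 troponin genes and shifted for others. Relative to Acta1 in the same tumour, Tnnt3 stood at 31.1% in shST3GAL3 2, 31.9% in shControl 1, 31.6% in shST3GAL3 3 and 33.9% in shControl 3. Tnnc2 stood at 21.5%, 21.9%, 21.7% and 23.6% of Acta1 in the same 4 tumours. Both ratios thus held while Acta1 itself fell 23.1-fold from the first to the last of them. Mylpf, in contrast, stood at 21.5%, 41.3%, 36.9% and 78.6% of Acta1, and Tnni2 at 21.0%, 27.1%, 29.0% and 44.9%. Mb stood at 1.89%, 4.62%, 2.41% and 16.4%, and Ckm at 11.9%, 9.15%, 13.0% and 3.09%. Each ratio is 1 value per tumour, with no error of its own. The 2 lowest tumours were left out, since Acta1 there was below 2 TPM.

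**Figure D2:**
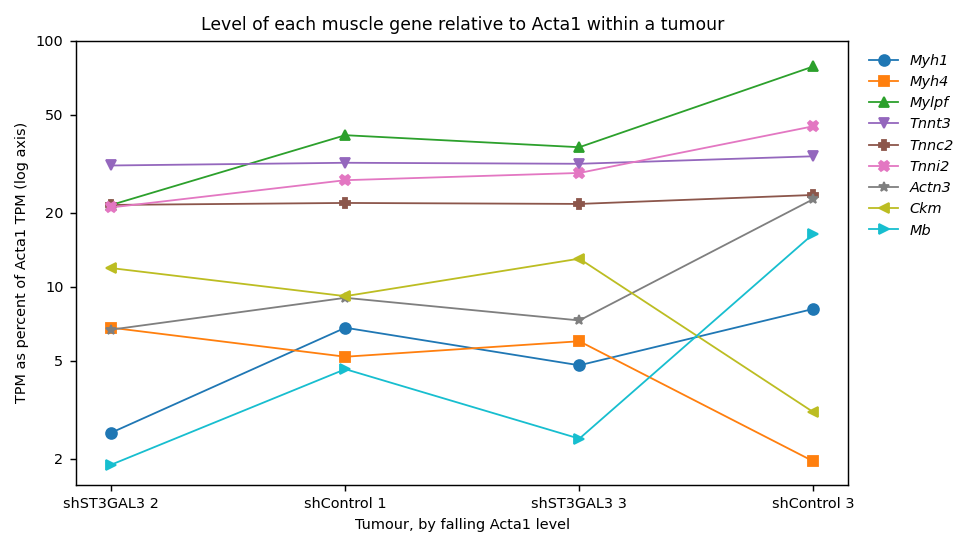
TPM of 9 muscle genes as a percent of the Acta1 TPM of the same tumour (y axis, log scale) in the 4 tumours with the highest Acta1, in falling order (x axis); lines join the values of 1 gene. Tnnt3 and Tnnc2 stay between 31.1% and 33.9% and between 21.5% and 23.6%, while Mylpf runs from 21.5% to 78.6%.

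The mix of heavy chains also differed between tumours. Of the summed TPM of the adult fast genes Myh1, Myh2 and Myh4, Myh4 made up 69.8% in shST3GAL3 2, 52.0% in shST3GAL3 3, 39.9% in shControl 1 and 18.3% in shControl 3. Myh1 made up 26.1%, 41.5%, 52.3% and 76.3% in the same tumours, and Myh2, the type IIA gene of more oxidative fibres, 4.12%, 6.47%, 7.83% and 5.38%. The ratio of Myh4 to Myh1 was 2.67 in shST3GAL3 2, 1.25 in shST3GAL3 3, 0.762 in shControl 1 and 0.239 in shControl 3. The last value rests on 0.17 TPM of Myh4. No ratio was taken in shControl 2 and shST3GAL3 1, where the adult fast genes summed to 0.01 and 0.04 TPM. With 2 tumours left in each group, the ratio was not tested between groups. The neonatal gene Myh8 reached 1.09 TPM in shST3GAL3 2 and the embryonic gene Myh3 0.44 TPM in shControl 1. Myh7, of slow fibres, was listed at 0 in both shControl 1 and shST3GAL3 2. It was highest, at 1.12 TPM, in shControl 2, the tumour with the lowest muscle sum, and lay between 0.02 and 0.18 TPM in the others.

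**Figure D3:**
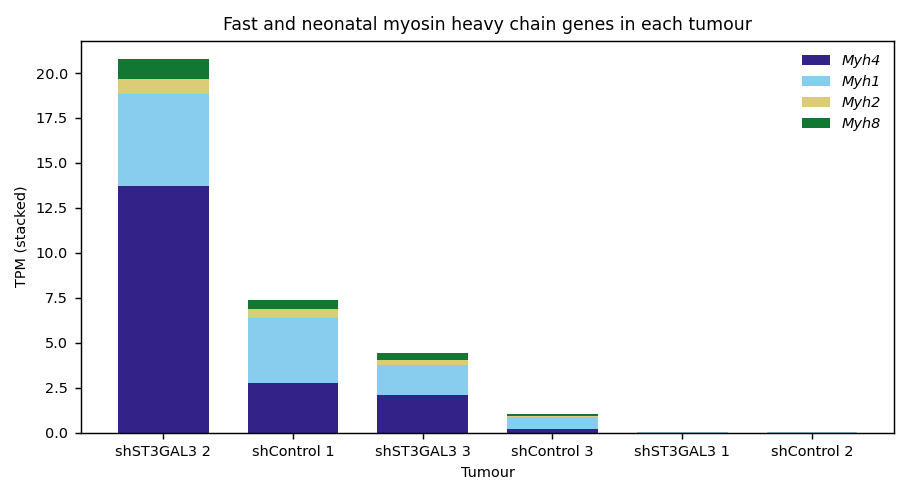
Stacked TPM (y axis) of the myosin heavy chain genes Myh4, Myh1, Myh2 and Myh8 in each tumour (x axis), ordered by the level of the muscle genes. Myh4 is the larger part in shST3GAL3 2 (13.72 of 19.67 TPM of the 3 adult genes), and Myh1 in shControl 1 (3.61 of 6.90 TPM).

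Heavy chain transcripts are alike enough to leave part of this division uncertain. In GENCODE M21, 9.46% of the 100-base words of the longest Myh1 transcript also occur in Myh2, Myh4 or Myh8, and 3.85% of those of Myh4 occur in the other 3. With 50-base words the shares were 25.2% and 18.5%. Reads from these stretches had to be divided by the authors' estimation. No 100-base word of Acta1 occurs in Actc1, Acta2 or Actb, and 2.00% of its 50-base words do, all in Actb. None of the 50-base words of Tnnc2, Tnni2, Tnnt3, Mylpf or Ckm occurred in the slow or brain-type paralogue compared (Tnnc1, Tnni1, Tnnt1, Myl2 and Ckb).

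Between the groups, 0 of the 10 muscle genes rose and 0 fell in limma's test at an adjusted p under 0.05, against 1 of all 14207 genes tested (0.00704%). The same count at an unadjusted p under 0.05 was 0 of 10, against 13.0% of all genes. In 0 of 10 did the groups lie apart without overlap, against 23.5%. All 10 log2 fold changes of shST3GAL3 against shControl were positive, with a median of 1.03 beside 0.01 for all genes tested, but each SE was close to or above its fold change. Acta1 had a mean of 20.7 ± 28.3 TPM in shControl and 79.4 ± 107 TPM in shST3GAL3 tumours (SD, n = 3), a log2 fold change of 1.65 (SE 1.83, limma adjusted p = 0.68). Ckm had the lowest p of the members, with a log2 fold change of 1.37 (SE 1.18, limma adjusted p = 0.597), and Mb the smallest change, 0.02 (SE 0.63, limma adjusted p = 0.99). The other 7 lay between 0.37 (Myh1, SE 0.78) and 1.17 (Tnnt3, SE 1.52).

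The group difference depended on single tumours. Without shST3GAL3 2 and with all 10 members kept in the fit, the median log2 fold change was -0.16 and 4 of 10 were positive. It was 0.24 without shControl 2, with 7 positive, 1.69 without shControl 1 and 1.97 without shST3GAL3 1. Leaving out shControl 3 or shST3GAL3 3 gave 0.86 and 0.98. In none of these fits did a member pass the test. With the filter on low values kept, 2 members had an unadjusted p under 0.05 without shST3GAL3 1, where the lowest limma adjusted p was 0.382. A p above the threshold does not show that the groups were alike.

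The spread inside the groups was wide for a gene tested here. The SD of log2(TPM + 1) within groups had a median of 1.64 over the 10 members, from 0.97 for Mb to 2.89 for Acta1, beside a median of 0.17 over all 14207 genes. By this SD Acta1 ranked 13 and Mb 246 among the genes tested, and 9 of the 10 members were among the 1% with the widest spread. The members were chosen with earlier results of these data known, so these ranks describe them and test nothing. St3gal3, in the same libraries, had an SD of 0.10.

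Other genes of mature muscle followed the members in part. Of 55 further genes of the sarcomere, of excitation and calcium handling and of muscle energy supply, 42 were highest in shST3GAL3 2, against 10.7% of all genes tested, and 5 in shControl 1. The full order of the members was found in 14 of the 55. Both low tumours lay below the other 4 in 16 of 25 sarcomere genes, 8 of 18 excitation and calcium genes and 0 of 12 energy genes. In 14 of the 55 both low tumours, shControl 2 and shST3GAL3 1, were listed at 0, among them the light chain gene Myl1, the titin cap gene Tcap, the calcium buffer gene Pvalb and the respiratory chain gene Cox8b. Over all genes tested the shares were 0.373% for the full order and 8.08% for this low pair. Of these 55 genes 36 failed the filter on low values, whereas the shares over all genes tested cover only genes that passed it. No share was taken over genes as low as those 36. Of the 19 tested, 0 rose and 0 fell (limma), with a median log2 fold change of 0.57. At an unadjusted p under 0.05 stood 1 of the 19, against 13.0% of all genes tested. This was Cox7a1, which was lower in shST3GAL3, with a log2 fold change of -0.72 (SE 0.19).

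Among the 25 other sarcomere genes, Myl1 measured 15.04, 0 and 3.50 TPM in the shControl 1, 2 and 3 libraries and 0, 30.07 and 7.81 TPM in the shST3GAL3 1, 2 and 3 libraries. Mybpc2, the fast myosin-binding protein, measured 2.51, 0 and 0.28 TPM in the shControl libraries and 0, 9.78 and 1.92 TPM in the shST3GAL3 libraries. Neb, the giant ruler protein of the thin filament, kept 0.41 and 1.57 TPM in the low tumours shControl 2 and shST3GAL3 1. Tpm2, a tropomyosin also found outside muscle, lay between 293.44 and 340.97 TPM in all 6 tumours and did not follow the order. Of the 6 tested, 5 had positive and 1 negative values, with a median log2 fold change of 0.69.

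Among the 18 genes of excitation and calcium handling, Atp2a1, the calcium pump of fast fibres, measured 5.08, 0.02 and 0.81 TPM in the shControl 1, 2 and 3 libraries and 0.18, 16.51 and 2.53 TPM in the shST3GAL3 1, 2 and 3 libraries. It showed the order of the members. The channel subunit gene Cacnb1 (1.95 to 2.94 TPM) varied little. Srl, of the sarcoplasmic reticulum, was highest in shControl 1 (4.64 TPM), and Jph2, a junctional membrane protein also of heart and smooth muscle, in shST3GAL3 1 (8.87 TPM, against 1.00 to 1.75 elsewhere).

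The 12 muscle energy genes were divided. Eno3, a muscle enolase, stood at 166.01 to 305.97 TPM and Pfkm, a phosphofructokinase, at 25.84 to 37.75 TPM, both lowest in shST3GAL3 1. Cox7a1, a subunit of respiratory complex IV, measured 12.87, 17.86 and 12.32 TPM in the shControl libraries and 9.38, 6.49 and 8.93 TPM in the shST3GAL3 libraries. It was thus lowest in shST3GAL3 2, the tumour with the most muscle RNA. Phka1, a phosphorylase kinase subunit, lay between 3.12 and 3.60 TPM. Cox8b, in contrast, was listed at 5.35 TPM in shST3GAL3 2, 1.00 in shControl 1 and 0 in the other 4.

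Genes of slow fibres and heart did not show the order. The full order was found in 0 of 9 slow fibre and 0 of 10 heart genes, against 0.373% of all genes tested. At that share, lists this short would seldom hold such a gene. In shST3GAL3 2 were highest 0 of the slow fibre genes and 3 of the heart genes, against 10.7% of all genes tested. Those 3 were Nppb and, with at most 0.26 and 0.06 TPM, Nppa and Ryr2. Only 2 slow fibre and 3 heart genes passed the filter on low values. Tnnc1, the troponin C of slow fibres and heart, lay between 4.14 and 6.16 TPM and Tnnt1 between 0.89 and 2.80 TPM. The light chain genes Myl2 and Myl3 reached at most 0.29 and 0.17 TPM. In the heart list, Tnnt2 measured 30.68, 23.11 and 29.21 TPM in the shControl libraries and 54.67, 45.34 and 35.57 TPM in the shST3GAL3 libraries, and Nppb 8.29, 6.04 and 7.49 TPM against 11.49, 12.91 and 11.60 TPM. For both the groups did not overlap, as was also so for Tnni3 (0.16 to 1.27 TPM), which failed the filter. The share without overlap was 23.5% of all genes tested. Tnnt2 and Nppb had an unadjusted p under 0.05 in limma's test, against 13.0% of all genes tested, and neither passed over all genes. Myl7, of the atrium, was listed at 0 in all 6 libraries.

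Regulators of muscle formation were low. Of 13 genes of developing and regenerating muscle, 10 stayed under 1 TPM in all libraries and 0 passed the filter. Myog, a factor of muscle differentiation, measured 0.63, 0 and 0.36 TPM in the shControl 1, 2 and 3 libraries and 0, 0.68 and 0.37 TPM in the shST3GAL3 1, 2 and 3 libraries. Myf6, the related factor of mature fibres, stood at 0.51, 0 and 0.11 TPM and at 0, 1.46 and 0.17 TPM. Both were thus listed at 0 in the same 2 tumours as Tnnc2. Pax3 and Myf5 were listed at 0 everywhere, and Pax7, of muscle stem cells, reached at most 0.01 TPM. Mymx, a fusion factor, was listed at 1.20 TPM in shControl 3 alone.

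**Figure D4:**
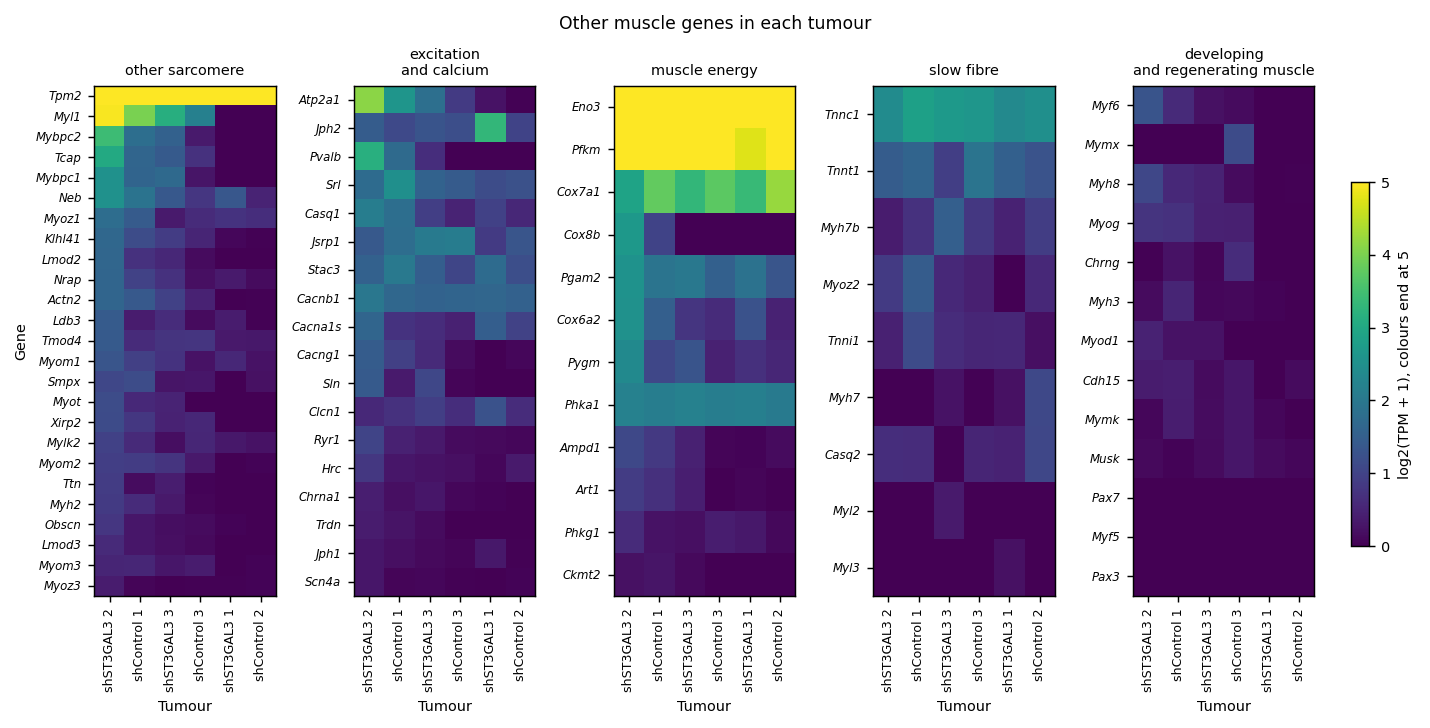
Level on the log2(TPM + 1) scale (colour, ending at 5) of the genes of 5 further muscle lists (rows) in the 6 tumours (columns), ordered by the level of the 10 muscle genes. Most sarcomere genes fade from left to right, while Tpm2, Eno3 and Pfkm are bright in all columns and slow fibre genes show no such gradient.

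Genes with the pattern nearest to the members were mostly muscle genes. Of 2845 genes compared with the members' mean by Pearson's r over the 6 libraries, 28 had an r over 0.9, a description that carries no test. The nearest were Klhl41 (0.999), a sarcomere-assembly factor, Atp2a1 (0.994), Tcap (0.993), Myh8 (0.987), Actn2 (0.985), the Z disc actinin of heart and all fibre types, and Mybpc2 (0.983). Next came ENSMUSG00000120760 (0.98), which the files list without a symbol, Myl1 (0.98), Eef1a2 (0.979), the elongation factor of muscle and neurons, and Ankrd2 (0.979), a stretch-responsive muscle gene. Of these 10, 7 stood on the muscle lists examined. Eef1a2 was listed at 0 in shControl 2 and shST3GAL3 1 and at 3.48 TPM in shST3GAL3 2.

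Markers of other tissues moved differently from the muscle genes. The summed level of 8 smooth muscle genes was 304, 263 and 258 TPM in shControl 1, 2 and 3 and 1036, 296 and 294 TPM in shST3GAL3 1, 2 and 3. Its peak was thus in shST3GAL3 1, which had the second lowest muscle sum. Acta2, the smooth muscle actin, stood at 460.35 TPM there and at 49.39 to 91.26 TPM elsewhere. Smtn went the other way, lowest in shST3GAL3 1 at 120.27 TPM against 136.71 to 185.63 TPM elsewhere. It was a large part of the sum in shControl, with 169.11, 185.63 and 151.47 TPM. Of the 6 smooth muscle genes tested 0 rose and 0 fell, with a median log2 fold change of 1.17. Of these, 5 had positive values and 1, Smtn, a negative one (-0.31, SE 0.11). Smtn alone had an unadjusted p under 0.05 in limma's test.

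Adipocyte genes were high in the tumour with the most muscle RNA and in one with very little. The 8 adipocyte genes summed to 18.3, 7.03 and 12.7 TPM in shControl 1, 2 and 3 and to 94.8, 74.8 and 22.2 TPM in shST3GAL3 1, 2 and 3. Adipoq, which encodes the fat cell hormone adiponectin, measured 0.23, 0 and 0.22 TPM in the shControl libraries and 3.04, 2.74 and 0.33 TPM in the shST3GAL3 libraries. The 2 tumours highest in adipocyte genes were thus the highest and second lowest in muscle genes. The 10 fibroblast and fascia genes summed to 492, 427 and 688 TPM in shControl and to 4355, 1227 and 789 TPM in shST3GAL3 tumours, and the 6 endothelial genes to 59.8, 45.2 and 63.0 and to 224, 101 and 86.9 TPM. For both lists shST3GAL3 1 was highest and shControl 2 lowest. At an unadjusted p under 0.05 stood 2 of 2 adipocyte, 7 of 9 fibroblast and 5 of 6 endothelial genes tested, all higher in shST3GAL3. Over all genes tested that share was 13.0%, and 70.8% of those genes were higher in shST3GAL3. In the adjusted tests of these 3 lists 0 genes rose and 0 fell, with median log2 fold changes of 2.18 over 2 adipocyte genes, 1.64 over 9 fibroblast genes and 1.06 over 6 endothelial genes.

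**Figure D5:**
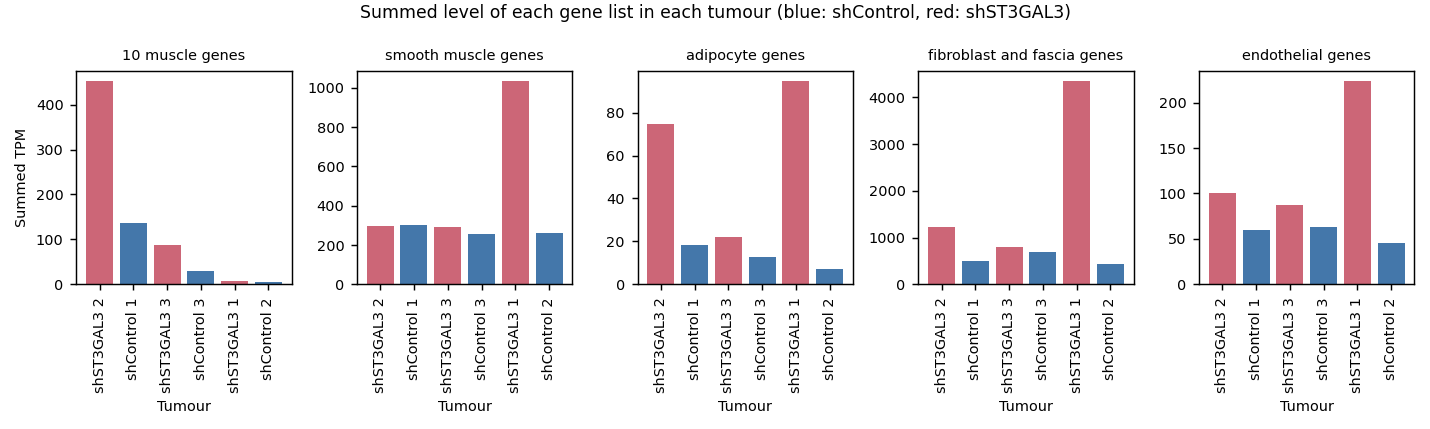
Summed TPM (y axis, each panel with its own scale from 0) of the 10 muscle genes and of 4 other gene lists in each tumour (x axis, ordered by the muscle sum; blue shControl, red shST3GAL3). The muscle sum is highest in shST3GAL3 2 (453 TPM), while the other 4 lists peak in shST3GAL3 1.

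Of several other tissues some markers were at or near 0 and others were not. Of 7 skin epithelium genes, Krtdap was listed at 0 in all libraries and Krt5 and Krt14 reached at most 0.03 and 0.11 TPM, while Krt10 lay between 2.93 and 5.10 TPM and Sbsn between 2.67 and 9.84 TPM. The skin list summed to 6.89 to 15.7 TPM, with its peak in shST3GAL3 1. Among 8 abdominal organ genes Ttr, Cela2a and Pnlip were listed at 0 everywhere, and the list summed to 1.04 to 3.37 TPM. The ovary and oviduct list summed to 3.33 to 4.44 TPM, with Fshr at 0 throughout. Of the mesothelium list, Upk3b and Lrrn4 reached at most 0.02 and 0.12 TPM, while the whole list summed to 958, 1088 and 902 TPM in shControl and 401, 733 and 848 TPM in shST3GAL3 tumours. Nearly all of that sum was Krt19, a keratin of simple epithelia like Krt8 and Krt18, at 384.42 to 1070.25 TPM. Of the rest of this list, Msln lay between 13.64 and 19.78 TPM, Wt1 between 0.49 and 3.01 TPM and Upk1b between 0.19 and 0.83 TPM. Myelin genes of peripheral nerve, which runs with muscle, summed to 18.9, 21.3 and 19.5 TPM in shControl and to 13.9, 16.8 and 16.8 TPM in shST3GAL3 tumours, and did not follow the muscle order. The part of these other tissues in the muscle values was not tested.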

How the data were processed

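RNA sequencing of 6 tumours was analysed, 3 shControl and 3 shST3GAL3, grouped by title. The authors deposited TPM for each gene, rounded to 2 decimals; library sums of 999999 to 1000001 identify the unit. Per the submitters' processing notes fastp, HISAT, RSEM and the build GRCm39 were used. The sources used here do not give versions, the annotation or the strand setting. TPM keeps no read number, so no counting interval was given.

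A gene was tested if 3 or more libraries held 1 TPM or more of it. The test was limma 3.58.1 (R 4.3.3, trend option) on log2(TPM + 1), with group as the sole term. Benjamini-Hochberg adjustment covered all genes tested, at a threshold of 0.05. Fold changes on this scale understate those of low genes. The procedure was tested on simulated data. The members and lists were chosen with earlier results of these data known. Named genes were the 10 members, the 4 genes of each other list with the highest mean TPM, the 10 nearest in pattern (TPM of at least 1 somewhere, a log2 range of at least 1, predicted genes left out) and St3gal3. The text gives a selection of these. Genes named beyond the rule were chosen after their values were seen. The skin gene Loricrin was not matched by that symbol. Alternatives were another pseudocount, other filters and scalings, the replicate number as a block and leaving out each library. Leaving out libraries without the filter was added after seeing the data.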

Additional observations from a re-analysis of the deposited data

How the results depend on the processing

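With log2(TPM + 0.1), no filter, a filter on mean TPM, median-ratio scaling, quantile normalization, rescaling without mitochondrial, ribosomal protein and immunoglobulin genes, and the replicate block, 0 of the 10 members passed the test, and their median log2 fold change lay between 0.96 and 1.16. The sign of Mb turned with log2(TPM + 0.1) (-0.052), quantile normalization (-0.032) and rescaling (-0.002); the cause was not tested. The count of genes called, 1 (Gm1943), was 2 with log2(TPM + 0.1), where Gm6916 also passed; both were named after their values were seen. It ranged from 0 to 2 when 1 library was left out, with 0 without any 1 shControl library and 2 without shST3GAL3 2 (Gm47551 added) or, with the filter kept, shST3GAL3 3 (Gm22988 added).

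When 1 library was left out, the median of the members ranged from -0.16 to 1.97 and their count of calls stayed at 0. With the filter on low values 6 to 10 members were tested, and without it all 10. Without the filter, log2 fold changes ranged from -0.26 to 1.02 for Myh1, 0.10 to 2.04 for Myh4, -0.45 to 1.498 for Mylpf, 0.21 to 3.27 for Acta1, -0.15 to 2.62 for Tnnt3, -0.21 to 2.53 for Tnnc2, 0.01 to 1.90 for Tnni2, -0.17 to 1.39 for Actn3, 0.26 to 2.52 for Ckm and -0.56 to 0.50 for Mb. All 10 lowest values came without shST3GAL3 2 and all 10 highest without shST3GAL3 1. With the filter the lowest values of Myh1 (-0.125), Myh4 (0.769), Ckm (0.965) and Mb (-0.439) came without shControl 2. The sign of Mylpf also turned there (-0.135).

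Deviations from the group means gave r = 0.014, -0.080 and 0.040 between same-numbered samples 1, 2 and 3 over 14207 genes. Differently numbered pairs ran from -0.123 to 0.128. With 3 libraries in each group these values cannot decide whether the number marks a pairing. What the number stands for is not given, and a shared batch was not tested. With the replicate block 1 gene was called, 0 of the 10 members passed and their median stayed at 1.03. Median-ratio scaling left the summed level of the members between 5.54 and 445 TPM and kept shST3GAL3 2 highest. Of the genes at an unadjusted p under 0.05, 70.8% were higher in shST3GAL3. That share was 55.1% after median-ratio scaling, 47.8% after quantile normalization and 62.7% after the rescaling. The unknown depth limits statements on values near 0.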
